A study of Mus musculus with 6 samples.

Results

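The genes that encode the cytosolic translation initiation factors (eIFs) and elongation factors (eEFs) were compared between hypertrophic mouse hearts in which the microRNA miR-199a was targeted and control hearts. The set was every protein-coding gene whose symbol begins with Eif or Eef followed by a digit, leaving out Eif2s3x and Eif2s3y, which lie on the sex chromosomes. This gave 66 of the 54532 genes measured, of which 22046 are protein-coding. By its symbol rule the set also holds genes that are not such factors, such as kinases of eIF2 and eEF2, eIF4E-binding proteins and elongation factor methyltransferases. The tested hearts carried AAV9-anti-miR-199a TuDs, that is, an adeno-associated virus of serotype 9 that delivers tough decoys, RNAs designed to bind and sequester a microRNA, and the controls carried AAV9-EGFP, the same vector type with a green fluorescent protein. There were 3 samples of each kind, called TuD hearts and control hearts here. All were myocardium of wild type C57BL/6 mice aged 18 weeks, and all hearts, controls included, were described as hypertrophic. How the hypertrophy was induced, the sex of the mice and the viral dose are not given in the sources used here, nor whether each sample is a separate animal, so p-values measure only the spread between these samples. The comparison asks which mRNAs differ when miR-199a is targeted in a hypertrophic heart.

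Translation begins when the small ribosomal subunit, loaded with eIF1, eIF1A, eIF3, eIF5 and the eIF2 complex that carries the initiator tRNA, is brought to the capped mRNA by eIF4F and scans to the start codon. eIF4F joins the cap-binding protein eIF4E, the scaffold eIF4G and the helicase eIF4A, and 4E-binding proteins, which mTORC1 phosphorylates, hold eIF4E away from the scaffold. eEF1A then delivers aminoacyl-tRNAs and eEF2 moves the ribosome along. Heart growth requires protein synthesis, and the adult heart is one of the few tissues that use the eEF1A2 form of eEF1A.

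miR-199a gives a 5p and a 3p mature strand, and both RefSeq sequences are shown with the seed (bases 2 to 8) in capitals because the target site search below rests on these seeds. The entries named miR-199a lie at 2 loci with the same mature sequences in GRCm38.p6, and loci of other names were not searched. On chromosome 1 (plus strand) 5p is at chr1:162217844-162217866 and 3p at chr1:162217883-162217904. On chromosome 9 (minus strand) 5p is at chr9:21496537-21496559 and 3p at chr9:21496498-21496519.
mmu-miR-199a-5p: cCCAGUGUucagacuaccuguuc
mmu-miR-199a-3p: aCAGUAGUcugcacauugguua

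Mature miR-199a was not analysed here, so the action of the decoys on the microRNA was not checked. The annotated 3' UTRs of the tested members were searched, on the mRNA strand, for the match to bases 2 to 8 (ACACTGG for 5p, ACTACTG for 3p) and for the match to bases 2 to 7 followed by an A (CACTGGA for 5p, CTACTGA for 3p). A site holding both forms is called an 8mer. All 60 tested members had an annotated 3' UTR, and 17 of them held 20 sites in all. A 5p site was found in 15 members (25.0%), and 23.2% of the 9549 tested genes with a 3' UTR held one. A 3p site was found in 3 members (5.0%), against 13.7% of all tested genes. The median 3' UTR was 931 bases in the members and 1102 bases in all tested genes.

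Among the 17 members that were higher in TuD hearts, 3 held a 5p site (Eif1a, Eif2b3 and Eif3j1) and 1 a 3p site (Eif3j1). Among the 4 that were lower, none held a 5p site and Eif4ebp2 held a 3p site. The sites of called members and the 8mers are printed in GRCm38 as 30-base windows of the mRNA strand, with the site in capitals, so that the match can be read beside each gene's response; that of Eif1a is not printed. None of the 4 genes with an 8mer passed the test, and their log2 fold changes were -0.39 (Eif5b), -0.14 (Eif4e2), -0.03 (Eef2kmt) and +0.05 (Eif4a2).
Eif3j1, 5p, chr2:122055672-122055701 (plus): gccaggttagaataACACTGGttaccttgg
Eif3j1, 3p, chr2:122054228-122054257 (plus): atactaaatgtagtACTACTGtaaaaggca
Eif2b3, 5p, chr4:117072978-117073007 (plus): cactcgtaacaagtCACTGGAgaaaaccgt
Eif4ebp2, 3p, chr10:61433377-61433406 (minus): cttccctacagcccACTACTGgtggagcgc
Eif4a2, 5p 8mer, chr16:23112695-23112724 (plus): aaatacttgctttcACACTGGAaaaaaagt
Eif4e2, 5p 8mer, chr1:87240276-87240305 (plus): acaagggaagtgggACACTGGAgggtgggt
Eef2kmt, 5p 8mer, chr16:5244720-5244749 (minus): agaagttggcagggACACTGGAagtaacag
Eif5b, 5p 8mer, chr1:38054960-38054989 (plus): caaaaccttccaagACACTGGAtatgagca

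RNA abundance was measured by RNA sequencing and given as FPKM, the read count of a gene divided by its length and by the library size, which was scaled between libraries here (normalised FPKM). The reads recovered from the FPKM values numbered 15.2 to 16.7 M (M, megareads) per TuD library and 18.0 to 18.2 M per control library. A gene was tested where it reached FPKM 1 in at least 3 of the 6 samples, on log2(normalised FPKM + 0.5) with limma across 10460 genes, and a call means a Benjamini-Hochberg adjusted p under 0.05. Fold changes are on that scale, which understates the change of low genes. As a check of the tissue label, 6 cardiomyocyte markers (Myh6, Tnnt2, Tnni3, Actc1, Myl2 and Ryr2) summed to 24671 to 30937 normalised FPKM in TuD hearts and 23266 to 24418 in control hearts, and 3 of the 6 rose. The 3 atrial markers summed to 2.14 to 114 in TuD hearts against 0.612 to 0.716 in controls, the 4 adipocyte markers to 3.62 to 10.6 against 0.0684 to 0.820, and the 3 neutrophil markers to 3.88 to 164 against 0.896 to 5.09. The 4 skeletal muscle markers summed to 1.04 to 1.90 in TuD hearts against 0.486 to 0.637 in controls, with Myh4 at 0 in all 6 samples. The 5 erythroid markers summed to 1374 to 3292 in TuD hearts against 1142 to 1604 in controls, and the 6 fibroblast markers to 125 to 177 against 118 to 128. Beyond the cardiomyocyte list, the markers that rose were Hba-a1 and Hba-a2 (erythroid), Lum and Tcf21 (fibroblast), Rgs5 (pericyte) and Cfd (adipocyte), and Col1a2 (fibroblast) fell. The 4 adipocyte markers together stayed under 1 normalised FPKM in every control. Cfd therefore passed the expression filter through the TuD samples alone, and its call is not independent of the filter. No endothelial or macrophage marker passed, of 5 tested in each list. Summed FPKM of 4 Y-linked genes was 0.0254 and 0.00711 in TuD replicates 1 and 2, against 12.5 in TuD replicate 3 and 8.32 to 9.59 in the controls, so that the groups also differ in the presence of Y-linked transcripts. In bulk tissue, fewer cells of a type and less RNA per cell cannot be told apart, and the part of these marker differences in the results below was not tested.

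Of the 66 genes, 60 could be tested. The other 6 were Eif2ak2, Eif2ak4, Eif4ebp3, Eif5a2 and Eef1akmt3, which lay below the filter, and Eif4e1b, which had no read in any sample. In TuD hearts 17 of the 60 rose (28.3%), against 15.0% of all tested genes, and 4 fell (6.67%), against 14.3% of all tested genes. Calls in either direction made up 29.3% of all tested genes, and the other 39 members did not pass the test. The 3 TuD samples lay above all 3 control samples for 23 members (38.3%, against 23.5% of all tested genes) and below them for 10 (16.7%, against 24.4%); in either direction 47.9% of all tested genes had groups that did not overlap. The median log2 fold change was +0.13 in the members and +0.01 in all tested genes, and 41 of the 60 members were positive. Eef1akmt2 passed the expression filter through the TuD samples alone, so it is counted but its call is not independent of the filter.

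**Figure D1:**
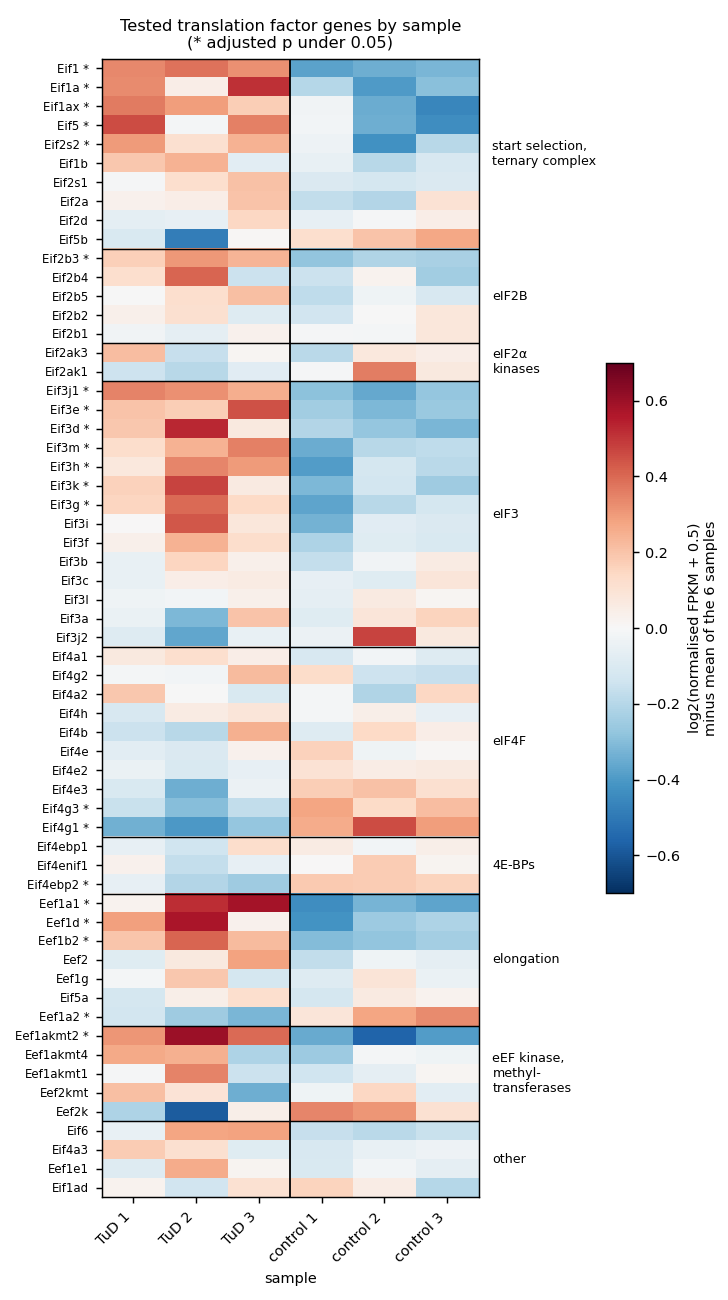
Rows are the 60 tested genes grouped by role and columns are the 3 TuD and the 3 control samples. Colour is log2(normalised FPKM + 0.5) minus the gene's mean over the 6 samples, and a star marks the 17 genes that rose and the 4 that fell. In the start selection and eIF3 blocks most rows are red in the TuD columns, while Eif4g1 and Eif4g3 are blue there.

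The scale between libraries bears on these counts. Scaled to TPM instead, the length-adjusted values of each library sum to the same total, and the median of all tested genes was -0.36. There 1 member was higher (Eef1akmt2) and 15 of 60 were lower, against 438 higher and 4202 lower of all 10460 tested genes. The members' median was -0.25, still above the -0.36 of all genes. The other 16 rising members kept a positive fold change under TPM with adjusted p between 0.0900 and 0.695. With the presence of Y-linked transcripts as a covariate, the estimate becomes a comparison of TuD replicate 3 with the controls. Its calls were therefore not counted. Fewer genes passed there, both among the members and among all tested genes. All 21 called members kept their direction, and the fold changes of Eif3d, Eif3k and Eef1d were +0.33, +0.29 and +0.33 there. Without the expression filter 10 calls ended, with adjusted p between 0.0511 and 0.115.

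Among the factors that select the start codon and carry the initiator tRNA, 5 of 10 tested genes rose (Eif1, Eif1a, Eif1ax, Eif5 and Eif2s2), none fell, and 9 had a positive fold change. The group's median was +0.34, which became -0.03 under TPM, above the -0.36 of all genes. Eif1, which keeps the scanning ribosome open and guards against poor start codons, lies at chr11:100319885-100322096 on the plus strand in mm10. It had 387, 398 and 382 normalised FPKM in TuD hearts, against 237, 242 and 245 in control hearts. All TuD samples were above all controls, by a log2 fold change of +0.69 ± 0.10 (SE, adjusted p = 0.00375).

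Eif1a and Eif1ax encode near-identical forms of eIF1A, which works with eIF1 in scanning. Eif1a had 4.49, 3.60 and 5.16 normalised FPKM in TuD hearts and 2.96, 2.51 and 2.74 in control hearts (+0.59 ± 0.14, adjusted p = 0.0185). Eif1ax, on the X chromosome, had 10.4, 9.85 and 9.0 in TuD hearts and 7.79, 6.14 and 5.66 in control hearts (+0.55 ± 0.13, adjusted p = 0.0188). Neither pair of groups overlapped. Reads shared by such near-identical copies may have been split between them in the counting, so the level of each is uncertain. Eif5, the GTPase-activating protein of eIF2, rose by +0.53 (adjusted p = 0.0403), and Eif2s2, the beta subunit of eIF2, by +0.43 (adjusted p = 0.0369).

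Eif2s1, the alpha subunit of eIF2 that stress kinases phosphorylate, had 7.23, 7.93 and 8.46 normalised FPKM in TuD hearts and 6.74, 6.63 and 6.75 in control hearts. Its groups did not overlap, but the difference of +0.21 ± 0.10 did not pass (adjusted p = 0.144). Eif5b, which joins the large ribosomal subunit, ran the other way, with 4.19, 3.11 and 4.57 in TuD hearts and 4.97, 5.29 and 5.58 in control hearts (-0.39 ± 0.14, adjusted p = 0.0753). It passed in 3 of the 20 alternatives, among them without TuD replicate 3 (adjusted p = 0.0352). The fold changes of the remaining 3, Eif1b, Eif2a and Eif2d, lay between +0.01 and +0.24, and Eif1b passed without TuD replicate 3 (adjusted p = 0.0393). The call of Eif1 held without any 1 library, and its fold change was +0.35 with quantile normalisation. Those of the other 4 did not: without TuD replicate 1 the adjusted p was 0.0546 for Eif1a, 0.0607 for Eif1ax, 0.120 for Eif5 and 0.106 for Eif2s2, without control replicate 2 it was 0.0687, 0.0700, 0.123 and 0.127 in the same order, without control replicate 3 it was 0.0580, 0.0727, 0.132 and 0.0959, and without TuD replicate 3 it was 0.0747 for Eif5 and 0.0610 for Eif2s2.

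eIF2B recharges eIF2 with GTP and has 5 subunits, of which 1 rose (20.0%, against 15.0% of all tested genes). Eif2b3, its gamma subunit, had 2.80, 3.13 and 2.97 normalised FPKM in TuD hearts and 1.93, 2.04 and 2.01 in control hearts (+0.47 ± 0.11, adjusted p = 0.0161). The TuD samples were all above the controls, and the adjusted p was 0.0505 without control replicate 2 and 0.0583 without control replicate 3. Eif2b5, the catalytic epsilon subunit, had 35.0, 38.2 and 40.7 in TuD hearts and 30.9, 34.4 and 32.4 in control hearts, also without overlap, and did not pass (+0.22 ± 0.10, adjusted p = 0.143). Eif2b4 had 31.3, 38.4 and 25.9 in TuD hearts against 25.9, 29.4 and 24.2 in control hearts, with overlapping groups (+0.25 ± 0.15, adjusted p = 0.250). Eif2b1 and Eif2b2 had fold changes of -0.04 and +0.04.

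None of the eIF2 alpha kinases passed, of the 2 tested. Eif2ak1, the haem-regulated kinase HRI, had 5.54, 5.33 and 5.82 normalised FPKM in TuD hearts and 6.15, 8.06 and 6.51 in control hearts, with all TuD samples below the controls (-0.28 ± 0.12, adjusted p = 0.119). Eif2ak3, the endoplasmic reticulum kinase PERK, had 1.49, 1.03 and 1.23 in TuD hearts and 1.00, 1.30 and 1.27 in control hearts (+0.05 ± 0.15, adjusted p = 0.842). Below the filter, Eif2ak4, the amino acid sensor GCN2, had 0.580, 0.547 and 0.878 in TuD hearts and 0.888, 0.665 and 0.635 in control hearts, and Eif2ak2, the double-stranded RNA sensor PKR, averaged 0.673 ± 0.129 in TuD hearts and 0.923 ± 0.279 in control hearts (SD, n = 3 each). In both the groups overlapped.

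eIF3 is the largest initiation factor and holds the small subunit ready for the mRNA. Of its 14 genes, all tested, 7 rose (Eif3d, Eif3e, Eif3g, Eif3h, Eif3j1, Eif3k and Eif3m) and none fell. The group's median was +0.40, which was +0.02 under TPM. The 7 that did not pass include the large core subunits Eif3a (-0.10), Eif3b (+0.09), Eif3c (+0.04) and Eif3l (-0.01). Eif3j1, which encodes a loosely bound subunit and carries a site for each miR-199a strand, lies at chr2:122028546-122056598 on the plus strand. It had 6.52, 6.37 and 6.07 normalised FPKM in TuD hearts and 4.02, 3.79 and 4.06 in control hearts, a difference several times the spread within either group (+0.61 ± 0.10, adjusted p = 0.00510).

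Eif3e and Eif3m belong to the scaffold of the complex. Eif3e had 10.1, 9.91 and 12.1 normalised FPKM in TuD hearts and 7.31, 6.92 and 7.23 in control hearts (+0.55 ± 0.11, adjusted p = 0.0101). Eif3m had 34.6, 37.5 and 40.6 in TuD hearts and 24.8, 27.6 and 27.9 in control hearts (+0.48 ± 0.11, adjusted p = 0.0133). Groups did not overlap for either gene. The cap-contacting subunit Eif3d rose by +0.53 (adjusted p = 0.0218), Eif3h by +0.47 (adjusted p = 0.0237), Eif3k by +0.47 (adjusted p = 0.0296) and Eif3g by +0.46 (adjusted p = 0.0223). Eif3f and Eif3i were also above every control in all 3 TuD samples without passing, at +0.27 and +0.34 (adjusted p = 0.0798 and 0.0948). Eif3j2, an intronless copy of Eif3j1, was below the controls in all 3 TuD samples (0.945 ± 0.166 in TuD hearts and 1.34 ± 0.360 in control hearts, SD, n = 3 each; -0.33, adjusted p = 0.188), and reads of the 2 copies may not be separable.

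The calls of Eif3e, Eif3j1 and Eif3m held without any 1 library, and the other 4 did not. The adjusted p of Eif3d was 0.0702 without control replicate 2 and 0.0756 without control replicate 3, and that of Eif3g was 0.0729 and 0.0654 without control replicates 1 and 2. For Eif3h it was 0.0535 without TuD replicate 2 and 0.0766, 0.0508 and 0.0681 without control replicates 1, 2 and 3, and its fold change was +0.20 with quantile normalisation. For Eif3k it was 0.0581 and 0.0523 without TuD replicates 1 and 2, and 0.0885, 0.0624 and 0.0918 without control replicates 1, 2 and 3.

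**Figure D2:**
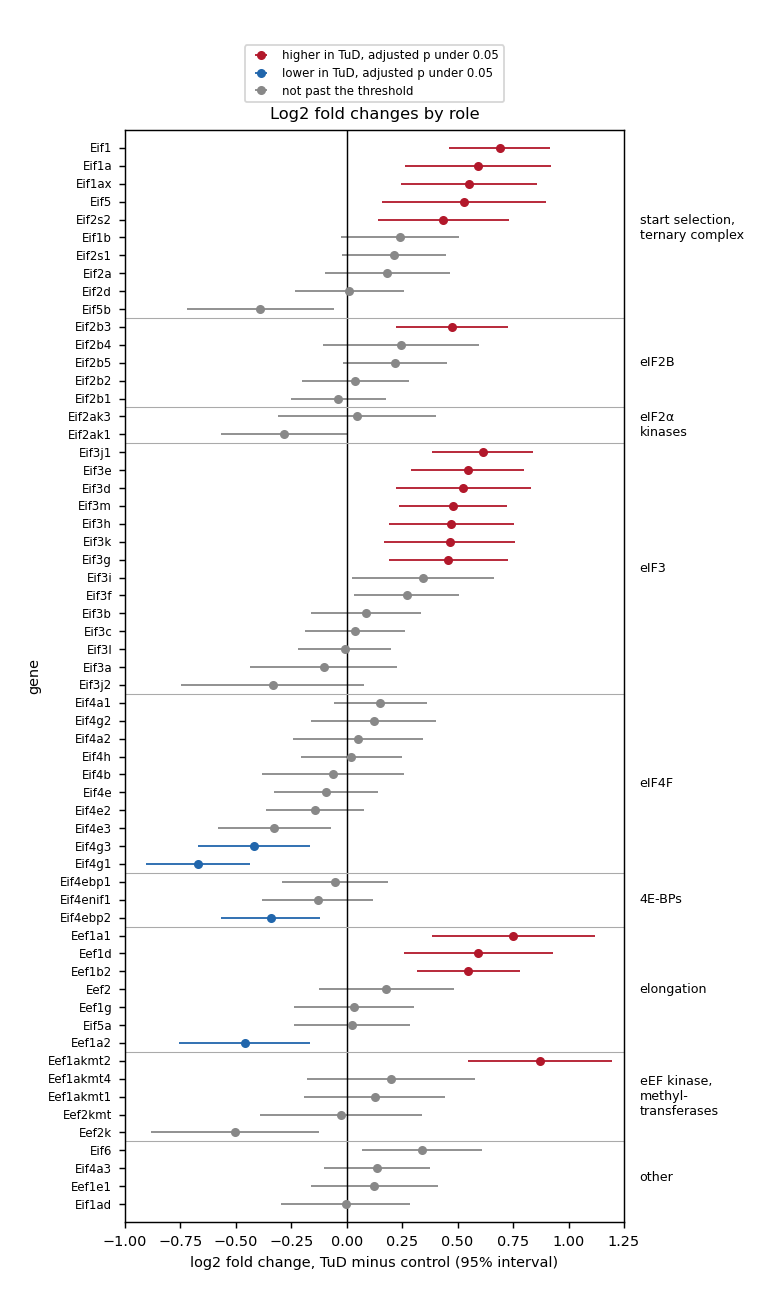
Points are log2 fold changes of TuD minus control hearts with 95% intervals for the 60 tested genes, ordered by role, with red for genes that rose, blue for genes that fell and grey for the rest. The red points lie mainly among the start selection and eIF3 genes, and both eIF4F genes that passed, Eif4g1 and Eif4g3, lie on the negative side.

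The cap-binding complex eIF4F and its partners contained no gene that rose. Of 11 genes 10 were tested and 2 fell (20.0%, against 14.3% of all tested genes), both of them eIF4G scaffolds. The group's median was -0.08 (-0.46 under TPM). Eif4g1, the main scaffold that links the cap-binding protein to eIF3 and the poly(A)-binding protein, lies at chr16:20668313-20692884 on the plus strand. It had 52.7, 50.4 and 55.2 normalised FPKM in TuD hearts, against 79.8, 91.6 and 81.7 in control hearts, so the TuD mean was 37.5% lower. The fold change was -0.67 ± 0.10 (adjusted p = 0.00426), and the call held under every alternative tried, TPM and each left-out library included.

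Eif4g3, a related scaffold of much lower level in these hearts, had 2.76, 2.46 and 2.72 normalised FPKM in TuD hearts and 3.90, 3.49 and 3.73 in control hearts (-0.42 ± 0.11, adjusted p = 0.0243). Together the 2 scaffolds summed to 55.4 ± 2.52 in TuD hearts and 88.1 ± 6.10 in control hearts (SD, n = 3 each). Eif4g2, which lacks the part that binds eIF4E and serves cap-independent initiation, had overlapping groups, with 56.4, 56.2 and 66.6 in TuD hearts and 62.3, 51.5 and 50.9 in control hearts (+0.12 ± 0.12, adjusted p = 0.478). The call of Eif4g3 ended without every library but TuD replicate 3, with adjusted p of 0.0528 and 0.0662 without TuD replicates 1 and 2 and 0.0739, 0.0559 and 0.0840 without control replicates 1, 2 and 3.

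None of the cap-binding proteins passed in the main test, although Eif4e3 did under some alternatives. Under TPM, where the median of all tested genes was -0.36, Eif4e (-0.48, adjusted p = 0.0194) and Eif4e2 (-0.52, adjusted p = 0.0114) also passed as lower. Eif4e had 14.3, 13.9 and 15.4 normalised FPKM in TuD hearts and 16.8, 14.7 and 15.1 in control hearts (-0.09 ± 0.10, adjusted p = 0.515). Eif4e3, an eIF4E relative that is abundant in muscle, had 11.8, 9.95 and 12.4 in TuD hearts and 14.4, 14.8 and 13.8 in control hearts, with all TuD samples below the controls (-0.33 ± 0.11, adjusted p = 0.0584). It passed in 5 of the 20 alternatives, among them without TuD replicate 3 (adjusted p = 0.0365). Eif4e2, a relative linked to repression, averaged 5.12 ± 0.127 in TuD hearts and 5.70 ± 0.106 in control hearts (SD, n = 3 each), also without overlap (-0.14, adjusted p = 0.289). Neither helicase gene passed, and the groups overlapped for Eif4a2 but not for Eif4a1. Eif4a1 had 47.2, 48.8 and 46.4 in TuD hearts and 41.5, 44.3 and 42.3 in control hearts (+0.15 ± 0.09, adjusted p = 0.235), and Eif4a2 had 44.7, 39.2 and 36.4 in TuD hearts and 38.8, 33.9 and 43.5 in control hearts (+0.05 ± 0.13, adjusted p = 0.788). Eif4a2 made up 45.7% ± 2.57 of their sum in TuD hearts and 47.5% ± 3.77 in control hearts (SD, n = 3 each). The helicase cofactors Eif4b and Eif4h had fold changes of -0.06 and +0.02.

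Of the eIF4E-binding proteins 3 of 4 were tested and 1 fell (33.3%, against 14.3% of all tested genes). Eif4ebp2 had 20.2, 18.1 and 17.6 normalised FPKM in TuD hearts and 24, 23.8 and 23.4 in control hearts, without overlap (-0.34 ± 0.10, adjusted p = 0.0312). Eif4ebp1 had 42.0, 39.6 and 47.7 in TuD hearts and 45.6, 43.2 and 45.1 in control hearts, with overlapping groups (-0.05 ± 0.10, adjusted p = 0.733). Eif4enif1, which carries eIF4E into the nucleus, averaged 5.59 ± 0.417 in TuD hearts and 6.17 ± 0.454 in control hearts (SD, n = 3 each) and did not pass (-0.13, adjusted p = 0.388). Only without TuD replicate 1 did the call of Eif4ebp2 hold among the left-out libraries. The adjusted p was 0.0670 and 0.0536 without TuD replicates 2 and 3 and 0.0791, 0.0936 and 0.0933 without control replicates 1, 2 and 3.

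**Figure D3:**
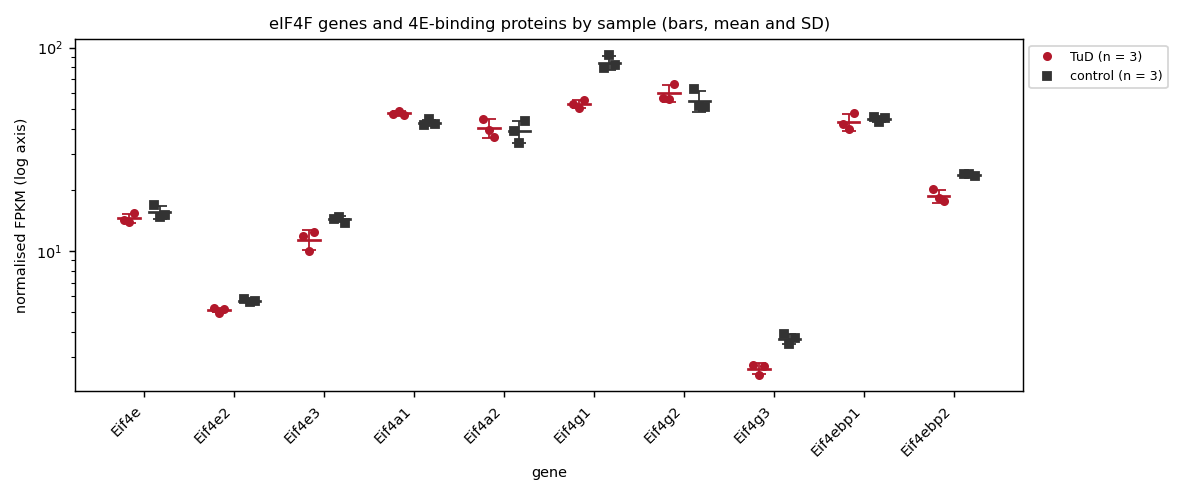
Normalised FPKM on a log axis for genes of eIF4F and the 4E-binding proteins, with points for single samples (red circles for TuD, dark squares for control), horizontal lines for means and bars for SD (n = 3 each). Eif4g1 shows the widest gap, with TuD samples at 50.4 to 55.2 and control samples at 79.8 to 91.6.

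Among the elongation factors 7 of 8 genes were tested, 3 rose (Eef1a1, Eef1b2 and Eef1d) and 1 fell (Eef1a2). That is 42.9% higher and 14.3% lower, against 15.0% and 14.3% of all tested genes. The genes for the 2 forms of eEF1A, the GTPase that delivers aminoacyl-tRNA, moved in opposite directions. Eef1a1, the form found in most cells, lies at chr9:78478449-78489151 on the minus strand and had 417, 586 and 614 normalised FPKM in TuD hearts, against 303, 327 and 317 in control hearts (+0.75 ± 0.16, adjusted p = 0.0117). Eef1a2, the form of adult muscle and neurons, lies at chr2:181147653-181157014 on the minus strand and had 928, 853 and 813 in TuD hearts, against 1074, 1227 and 1274 in control hearts (-0.46 ± 0.13, adjusted p = 0.0304). Neither pair of groups overlapped, and TuD replicate 1 was nearest to the controls for both genes.

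The share of Eef1a2 in the sum of the 2 genes was 69.0%, 59.3% and 57.0% in TuD hearts, against 78.0%, 79.0% and 80.1% in control hearts. The means were 61.7% ± 6.38 in TuD hearts and 79.0% ± 1.04 in control hearts (SD, n = 3 each), a difference of -17.3 percentage points. The share is a ratio within each library and does not change when a whole library is multiplied by 1 factor. Quantile normalisation is not such a factor, and the share was not computed under it. The sum itself does depend on the scaling between libraries. With the scaling used here it was 1404 ± 51.1 in TuD hearts and 1507 ± 114 in control hearts (SD, n = 3 each). This difference lay within the spread of the controls. The sum was not computed under quantile normalisation or TPM, where Eef1a1 rose less and Eef1a2 fell more. With quantile normalisation Eef1a1 was at +0.34 (adjusted p = 0.114) and Eef1a2 at -0.94 (adjusted p = 0.00287), and under TPM they were at +0.36 (adjusted p = 0.152) and -0.85 (adjusted p = 0.00250). The call of Eef1a2 held only without control replicate 1 among the left-out libraries: its adjusted p was 0.0523, 0.0561 and 0.0532 without TuD replicates 1, 2 and 3, and 0.107 and 0.122 without control replicates 2 and 3.

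Eef1b2 and Eef1d encode exchange factors that recharge eEF1A with GTP. Eef1b2 had 76.8, 89.1 and 78.3 normalised FPKM in TuD hearts and 54.2, 55.3 and 56.8 in control hearts (+0.55 ± 0.10, adjusted p = 0.00752). Eef1d had 41.3, 50.4 and 34.4 in TuD hearts and 25.1, 28.2 and 28.9 in control hearts (+0.59 ± 0.15, adjusted p = 0.0201). All TuD samples exceeded all controls for both. Eef1g, the scaffold of the same exchange complex, averaged 165 ± 18.5 in TuD hearts and 161 ± 10.6 in control hearts (SD, n = 3 each), with overlapping groups (+0.03, adjusted p = 0.856). The adjusted p of Eef1d was 0.0533 without TuD replicate 1 and 0.0648 and 0.0583 without control replicates 1 and 2.

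Eef2, the translocase, had 651, 725 and 838 normalised FPKM in TuD hearts and 611, 675 and 661 in control hearts, with overlapping groups (+0.18 ± 0.13, adjusted p = 0.333). Eif5a, which relieves stalled ribosomes and carries the hypusine modification, had 178, 199 and 211 in TuD hearts and 178, 203 and 198 in control hearts (+0.02 ± 0.11, adjusted p = 0.893). Its relative Eif5a2 had at most 0.316 in any sample.

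**Figure D4:**
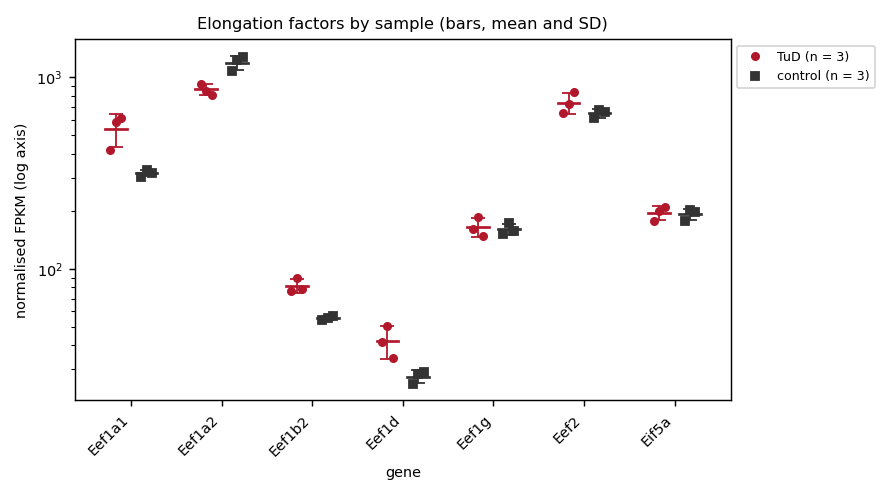
Normalised FPKM on a log axis for the 7 tested elongation factor genes, with points for single samples (red circles for TuD, dark squares for control), horizontal lines for means and bars for SD (n = 3 each). Eef1a1 lies higher in TuD hearts (417 to 614 against 303 to 327) and Eef1a2 lower (813 to 928 against 1074 to 1274), while Eef2 and Eif5a overlap.

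The modifiers of elongation factors include the eEF2 kinase, which phosphorylates and inhibits eEF2, and methyltransferases. Of 5 tested genes 1 rose (20.0%, against 15.0% of all tested genes). Eef1akmt2, a lysine methyltransferase of eEF1A at chr7:132827457-132852673 on the minus strand, had 1.67, 2.16 and 1.81 normalised FPKM in TuD hearts and 0.871, 0.689 and 0.835 in control hearts (+0.87 ± 0.14, adjusted p = 0.00533), on 24 to 55 reads per library. Its call held under every alternative that could test it, but it fell below the filter when any 1 TuD library was left out and at the higher filter of FPKM 5. Eef2k had 5.24, 3.96 and 6.37 in TuD hearts and 7.95, 7.77 and 6.68 in control hearts, all TuD samples below the controls, and missed the threshold (-0.50 ± 0.17, adjusted p = 0.0514). It passed as lower in 7 of the 20 alternatives, among them limma-voom (adjusted p = 0.0315) and without TuD replicate 3 (adjusted p = 0.0140). Eef1akmt4 overlapped between groups (2.15 ± 0.472 in TuD hearts, 1.78 ± 0.208 in control hearts, SD, n = 3 each; +0.20, adjusted p = 0.384), as did Eef1akmt1 (+0.13) and Eef2kmt (-0.03).

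The remaining 4 members did not pass. Eif6, which keeps free large subunits from joining small ones, had 17, 21.4 and 21.5 normalised FPKM in TuD hearts and 15.7, 15.3 and 15.7 in control hearts, all TuD samples above the controls (+0.34 ± 0.12, adjusted p = 0.0604). It passed in 2 of the 20 alternatives, without TuD replicate 1 (adjusted p = 0.0310) and with the filter at FPKM 5 (adjusted p = 0.0475). Eif4a3, a helicase of the exon junction complex, averaged 36.5 ± 3.41 in TuD hearts and 33.1 ± 0.893 in control hearts (SD, n = 3 each; +0.14, adjusted p = 0.350). Eef1e1, a component of the tRNA synthetase complex, averaged 3.59 ± 0.515 in TuD hearts and 3.23 ± 0.109 in control hearts (SD, n = 3 each; +0.13, adjusted p = 0.472). Eif1ad differed by less than 0.01 (adjusted p = 0.982).

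Some members are known to have 5' terminal oligopyrimidine (TOP) mRNAs, whose translation follows mTORC1. Of 11 such members 5 rose (Eef1a1, Eef1b2, Eef1d, Eif3e and Eif3h), 1 fell (Eef1a2) and 5 did not pass. These were 45.5% higher and 9.09% lower, against 15.0% and 14.3% of all tested genes. The median of the 11 was +0.27 (-0.12 under TPM). Of the 49 other tested members 12 rose (24.5%) and 3 fell (6.12%), with a median of +0.12 (-0.26 under TPM). The cytosolic ribosomal proteins, the largest family of TOP mRNAs, rose in 71 of 78 tested genes and fell in none, with a median of +0.79 (+0.41 under TPM).

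Fold changes also ran with gene length in this comparison. Across the 10460 tested genes Pearson's r between log2 fold change and the logarithm of gene length was -0.386, and across the 60 members it was -0.257. Within single libraries, r between a gene's deviation from its mean over the 6 samples and its length ran from -0.410 to -0.177 in TuD hearts and from 0.285 to 0.353 in control hearts. These are correlations across genes that share the same 6 libraries, and genes are not independent replicates. The 17 risers had a median length of 2879 bases, the 4 genes that fell 6542, the 39 others 3346 and all tested genes 3852. After a length correction 15 of the 60 members were higher and 3 lower, against 1195 and 1329 of the 10460 tested genes. The members' median was +0.13 after this correction. The calls of Eif3g, Eif3h, Eif4g3 and Eif4ebp2 ended under it (+0.28, +0.22, -0.25 and -0.23, with adjusted p = 0.0613, 0.152, 0.102 and 0.0905), and Eif4e3 was newly called lower (-0.41, adjusted p = 0.0413).

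**Figure D5:**
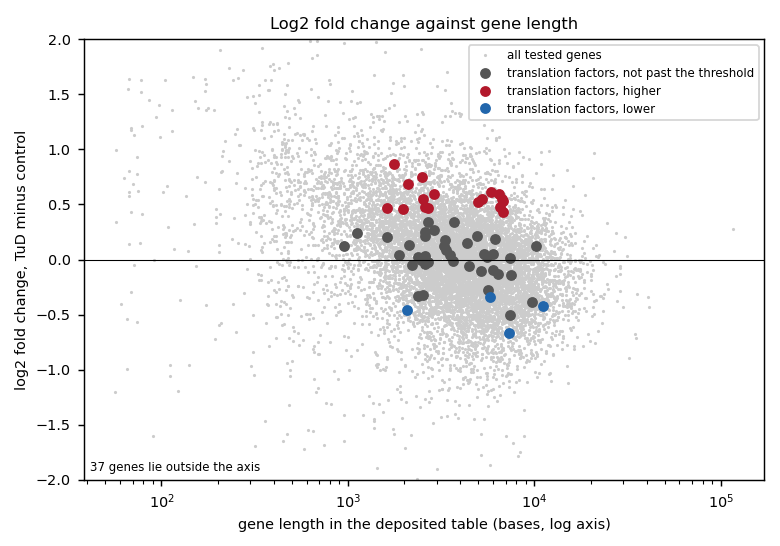
Each point is a tested gene, with its length in bases on a log axis and its log2 fold change of TuD minus control hearts. Grey dots are all 10460 tested genes, of which 37 lie outside the axis, and larger points are the 60 translation factor genes (red for higher, blue for lower). The risers spread from 1612 to 6820 bases, and Eef1a2, at 2084 bases, is a short gene among those that fell.

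Other genes of protein synthesis were counted by list. The counts of every list stand beside 15.0% higher and 14.3% lower of all tested genes. In mTORC1 signalling, with the S6 kinases and the eIF4E kinases MNK, 13 genes were tested, 7 were lower, 1 was higher and the median was -0.42. Mlst8, a subunit of mTORC1, had 1.66, 1.71 and 1.57 normalised FPKM in TuD hearts and 2.79, 2.81 and 3.33 in control hearts (-0.69 ± 0.12, adjusted p = 0.00621). Mknk1, which encodes MNK1, had 3.49, 3.03 and 3.16 in TuD hearts and 5.06, 5.61 and 4.60 in control hearts (-0.58 ± 0.12, adjusted p = 0.00978). The list's lower genes included activators of the pathway (Mtor, Rptor and Mlst8) as well as its inhibitors Tsc1 and Tsc2, and its 1 higher gene was the activator Rheb. After the length correction 5 genes of the list were lower.

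In termination and ribosome recycling 10 genes were tested, 4 were higher and 1 lower, beside 15.0% and 14.3% of all tested genes. Denr, a recycling factor, rose by +0.72 (adjusted p = 0.00629) and its partner Mcts1 by +0.61 (adjusted p = 0.00753), whereas Gspt1, the release factor eRF3a, fell by 0.69 on the log2 scale (adjusted p = 0.00929). Of 9 tested poly(A)-binding proteins and partners 1 was higher and 3 lower, with Paip2, an inhibitor of the poly(A)-binding protein, at +0.59 (adjusted p = 0.00550) and Pabpc4 at -0.42 (adjusted p = 0.0170). Paip2b, a second inhibitor related to Paip2, was at -0.45 (adjusted p = 0.0457). Of the 4 scanning helicases Ddx3x rose (+0.69, adjusted p = 0.00522).

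The integrated stress response, which follows phosphorylation of eIF2, had 4 higher and 2 lower of 17 tested genes, beside 15.0% and 14.3% of all tested genes. Mthfd2, one of the 4, passed the expression filter through the TuD samples alone. Atf5, a transcription factor of the response, was at +0.55 (adjusted p = 0.0123) and Cebpb at -0.44 (adjusted p = 0.0297). Of the 20 cytosolic tRNA synthetase genes, all tested, none was called higher and 1 was lower (Iars, -0.51, adjusted p = 0.0103). Of the 2 scaffold proteins of the synthetase complex listed with them, Aimp1 rose (+0.48, adjusted p = 0.0147) and Aimp2 did not pass, and the 22 genes together had a median of +0.03. None of the 5 tested selenocysteine genes passed. Of 4 tested diphthamide genes 1 was higher and 1 lower. Dph3, which is needed for the diphthamide modification of eEF2, was at +0.69 (adjusted p = 0.00473), and Dph1, which starts that modification, at -0.98 (adjusted p = 0.00653). Of the 2 enzymes that make hypusine on eIF5A, Dohh rose (+0.85, adjusted p = 0.00844) and Dhps did not pass. Of 11 mitochondrial translation factors 1 was higher and 2 were lower, among them the elongation factor Gfm1 at -0.60 (adjusted p = 0.00620).

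Genes that overlap or resemble others limit some of these values. The strand setting of the counting is not given in the sources used here, and 15 members overlap an annotated gene with a mean above 0.3 normalised FPKM. Eef1b2 overlaps Ndufs1 on the other strand (mean 71.9), Eef1d overlaps Naprt on its own strand (mean 12.9) and Eif3j1 overlaps Spg11 on the other strand (mean 1.22), and reads in the shared stretches cannot be assigned with certainty. The search found 17 annotated pseudogenes of these factors, none with an Eef symbol, and it may have missed others. Of the 17, Eif4a-ps4 averaged 27.8 normalised FPKM over the 6 samples and Eif1-ps1 averaged 2.18. Neither passed the test (-0.27, adjusted p = 0.0805, and +0.88, adjusted p = 0.0842).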

How the data were processed

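Myocardium of 3 TuD and 3 control hearts was sequenced from total RNA with an NEBNext Ultra kit, per the labels' protocols, and grouped by the labels. The submitters' processing notes name HISAT2 2.0.5, featureCounts 1.5.0-p3 and the mm10 build; the annotation release and strand setting are not given in the sources used here. The authors deposited FPKM values and gene lengths for 54532 genes. FPKM times length gave whole reads, within 0.05 read, for 100% of values above 0, and totals of 15.2 to 18.2 M reads (M, megareads).

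FPKM were scaled by the median ratio over genes of FPKM 1 or more in all 6 samples, filtered at FPKM 1 in 3 samples and tested as log2(value + 0.5) with limma 3.58.1 in R 4.3.3 (eBayes with trend, two-sided, TuD minus control, Benjamini-Hochberg over 10460 genes). Because the values are FPKM, no count model was the main test; limma-voom on the recovered reads called 1592 genes higher and 1694 lower, against 1565 and 1498. Target sites came from GENCODE M21 3' UTRs. The correction for gene length removed a lowess curve of each library's deviations on log10 gene length (span 0.3), and the Y-linked covariate was whether 4 Y-linked genes summed to at least FPKM 1. Scripts were tested on simulated data.

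Per role, up to 3 tested members of smallest adjusted p and the 16 listed factors of central function were given by sample or as mean and SD. Some other members were given in these forms too. Up to 2 called genes per pathway list were named. Other genes named (Mtor, Rptor, Rheb, Tsc1, Tsc2, Gspt1, Paip2b, Mthfd2, Aimp2, Dohh and Dhps) were chosen after their values were seen. Members, roles and lists were chosen with earlier results of these data known.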

Additional observations from a re-analysis of the deposited data

How the results depend on the processing

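Of the 1188 member values recomputed under 20 alternatives, no called member changed sign. Under TPM 1 member was higher and 15 lower, with a median of -0.25. Without the filter 9 were higher and 2 lower. With the Y-linked covariate the estimate rests on TuD replicate 3 against the controls, so its calls were not counted. Fewer genes passed there, both among the members and among all tested genes. Of all tested genes 438 were higher and 4202 lower of 10460 under TPM, and 1010 and 956 of 22702 without the filter. With quantile normalisation the median log2 fold change of tested members was 0.0437. Leaving out 1 library gave 7 to 15 higher, 1 to 5 lower and a median of 0.11 to 0.14. The fewest were higher (7) without control replicate 2, with 9 without control replicate 3 and 11 without TuD replicate 1. There was 1 lower without TuD replicate 2, control replicate 2 or control replicate 3. There were 2 lower without TuD replicate 1 or control replicate 1. Over all genes, leaving out 1 library gave 878 to 1638 higher and 718 to 1620 lower, of 10233 to 10276 tested. Of the 21 calls 7 held whichever library was left out, and Eif4g1 alone was tested and called under every alternative; Eef1akmt2 could not be tested without a TuD library or at FPKM 5. Members that did not pass changed sign in 80 values, 24 of them under TPM. Settings not named here left both counts within 1.5 times. The cause was not tested.

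Same-numbered samples did not deviate together (correlations 0.06, 0.09 and -0.06, with 1 of 3 TuD samples closest to its own number). With the replicate number as a block 17 members were higher and 2 lower, without Eef1a2 (adjusted p = 0.0636) and Eif4ebp2 (adjusted p = 0.0606). Of all 10460 tested genes 1462 were higher and 1199 lower with that block.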
